A study of Homo sapiens and Mus musculus with 28 samples.

Results

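The genes described here are 32 genes of cholesterol and fatty acid synthesis, measured in 28 RNA sequencing libraries of the human colorectal adenocarcinoma cell line DLD-1. They were chosen by name, and each was found by its Ensembl identifier in every file, so the set is 32 of 60357 gene identifiers shared by all libraries. The members fall into 7 enzymes that lead from acetyl-CoA through mevalonate to farnesyl diphosphate, 11 enzymes that turn this into squalene and then cholesterol, 6 regulators and carriers, and 8 enzymes of fatty acid synthesis, elongation and desaturation. All 32 passed the filter on low counts in every fit, so no count or median below is over a part of them.

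Cells obtain cholesterol by uptake and by synthesis, and the synthesis genes are switched on together by the sterol regulatory element-binding proteins, which SREBF1 and SREBF2 encode. These proteins start as precursors in the endoplasmic reticulum membrane, where INSIG proteins hold them with their escort SCAP while sterols are plentiful, and they travel to the Golgi and are cut to their active form when sterols run short. SREBF2 acts mainly on cholesterol genes and SREBF1 mainly on fatty acid genes, and INSIG1 is itself one of their targets, while many colorectal tumours express the fatty acid enzymes at high levels.

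GATA6, a DNA-binding factor of the gut lining with zinc fingers, was lowered in the study by 2 means. In cloned cells with degron-tagged GATA6 (genotype GATA6-AID-IAA7), the plant hormone auxin (indole-3-acetic acid, 500 µM) marks the tagged protein for degradation, and the groups were 72 h of auxin, 12 h of auxin, washout (a further 24 h without the hormone after 12 h with it), and control cells, which the labels give as auxin at 0 h (n = 3 each). All 4 groups carry the tag, and no cells without it were given auxin among these libraries. The loss of GATA6, other effects of auxin and the time under it therefore cannot be told apart. Cells with CRISPR knockout of GATA6 (KO) were compared with wild-type (WT) cells in culture (n = 3 each), and xenografts of KO cells with those of control cells, whose genotype the labels also give as WT, in the right flank of athymic nude mice, with 10 mice aged 5 to 6 weeks per condition (n = 5 each). Cells were grown in RPMI medium with 10% fetal bovine serum and 1% antibiotic. Athymic nude mice lack T cells and keep other immune cells. The labels do not say how many clones or guides stand behind the degron and KO cells, or whether replicates were separate cultures or animals, so p-values measure the spread between these libraries, which may be technical. The washout cells were also rinsed and given new medium, and cells treated so without earlier auxin were not analysed here. Those steps and the removal of auxin therefore cannot be told apart.

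Libraries held 14569850 to 36500654 counts. The GATA6 transcript was lower in KO cultures (25.2, 18.4 and 22.1 CPM) than in WT cultures (57.3, 73.7 and 91.7 CPM; log2 fold change -1.76, SE 0.23, edgeR adjusted p = 0.00243) and lower in KO than in control xenografts (log2 fold change -1.06, SE 0.10, edgeR adjusted p = 6.26e-07), while auxin acts on the protein, which was not measured. In degron cells the transcript was also lower at 72 h, at 31.4, 34.9 and 36.02 CPM against 43.2, 49.8 and 46.9 CPM in control cells (log2 fold change -0.45, SE 0.07, edgeR adjusted p = 7.43e-06), and it did not pass at 12 h (-0.05) or after washout against control cells (0.08). Of 8 colon epithelium markers, 6 to 8 reached 1 TPM in each library, with summed levels of 6548 to 19879 TPM. VIL1 and LGALS4, both markers of mature colon cells, stood at no more than 1.83 and 1.03 TPM in all cultured groups, and VIL1 at no more than 3.17 TPM in KO xenografts, against up to 52.2 TPM in control xenografts. Markers of fat cells summed to at most 0.74 TPM and markers of fibroblasts to at most 4.36 TPM. In the degron cells 4 libraries stood apart in haemoglobin transcripts: replicates 2 and 3 at 12 h held 4897 and 1027 such counts and washout replicates 1 and 3 held 227 and 2739, against 0 to 5 in each of the other 8. Medians or counts of the members at 12 h and after washout are given with and without them. Other results that rest on these libraries, among them separation, most single genes and the other lists, are given with all libraries only. The labels name mouse as the organism of the xenografts, but their files hold identifiers of human genes alone. How mouse reads were handled is not given in the sources used here, so the content of mouse cells was not measured. In bulk RNA, fewer cells of a kind and less RNA per cell cannot be told apart.

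The synthesis genes were mostly higher in KO cultures than in WT cultures and mostly lower in KO xenografts, after 72 h of auxin and after washout. In each library the members were summarised by the median over the 32 genes of the log2 ratio of CPM (counts scaled to the TMM-adjusted size of the library) to the mean CPM of the control group of the same system. This median was 0.35, 0.37 and 0.35 in KO cultures and 0.01, 0.00 and 0.00 in WT cultures. It was -0.37, -0.43, -0.16, -0.46 and -0.35 in KO xenografts and 0.01, -0.07, 0.08, 0.02 and -0.06 in control xenografts. In degron cells it was -0.02, -0.01 and 0.02 in the controls, -0.01, -0.02 and 0.00 at 12 h, -0.24, -0.20 and -0.22 at 72 h, and -0.22, -0.24 and -0.23 after washout. The treated and untreated libraries did not overlap in KO cultures, KO xenografts, at 72 h or after washout, and they did at 12 h. KO xenograft replicate 3 lay closest to its controls.

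Separation was also counted gene by gene. In KO cultures 20 members stood above all WT libraries and 4 below them, against 33.2% and 31.1% of genes tested, and in KO xenografts 4 stood above all control libraries and 16 below, against 20.5% and 20.4%. At 72 h 3 stood above all control libraries and 22 below (31.7% and 32.2% of genes), and against 12 h 3 above and 24 below (30.8% and 32.1%). After washout 0 stood above and 20 below all 12 h libraries (17.6% and 15.9%), and 0 above and 22 below all control libraries (10.5% and 10.3%). At 12 h 4 stood above and 6 below all control libraries (11.8% and 12.3%).

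**Figure D1:**
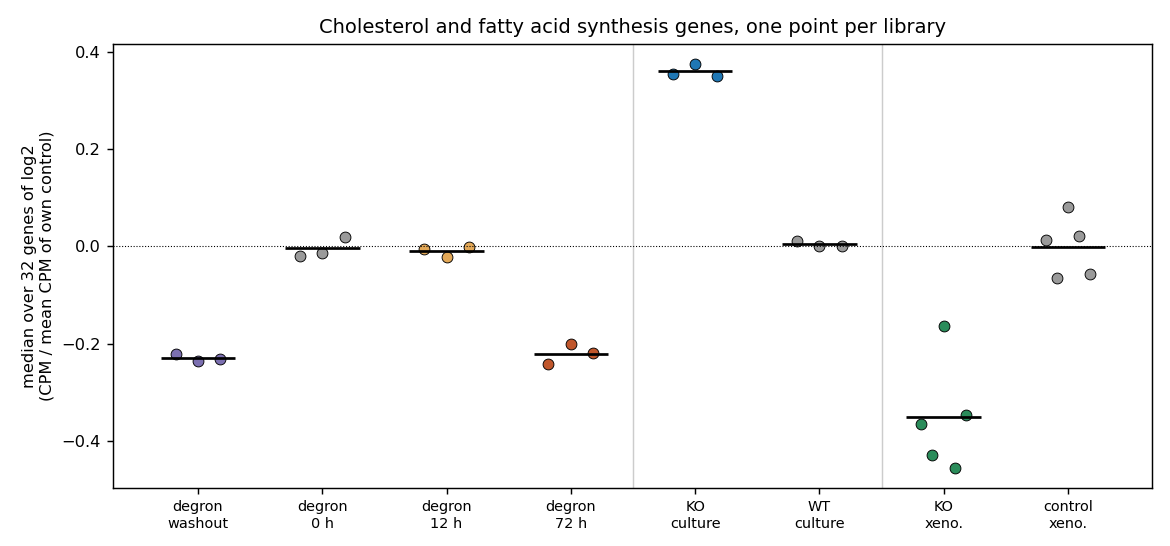
Each point is 1 library, and its height is the median over the 32 genes of the log2 ratio of CPM to the mean CPM of the control group of the same system (degron 0 h, WT culture or control xenograft); bars are group means. The 3 KO cultures sit between 0.35 and 0.37, while the KO xenografts (-0.46 to -0.16), the 72 h libraries (-0.24 to -0.20) and the washout libraries (-0.24 to -0.22) sit below 0.

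Promoters of the members were read from RefSeq (assembly GRCh38.p14) as windows of 250 bases before to 50 bases after the start of transcription. Windows were at hand for 28 of the 32 members, and not for ACAT2, FDFT1, SQLE and FASN. Of these 28, 21 (75.0%) held CCAAT, the letters bound by the factor NF-Y that works beside the sterol regulatory element-binding proteins, on either strand, against 39.7% of all 27305 genes with a window. The GC box GGGCGG stood in 27 (96.4%), against 48.3% of all genes, and the core CACGTG, which lies inside TCACGTGA, in 4, against 8.78%. The sterol regulatory element letters TCACNCCAC, where N is any base, were found only in SREBF2 among the members with a window (1.39% of all genes) and the palindrome TCACGTGA only in INSIG1 (1.18% of all genes). AGATAA, a sequence that GATA factors bind, stood in FDPS and CYP51A1 (7.14% of the members and 12.4% of all genes). Every share counts both strands, and a match is a run of letters, not a site shown to be bound. Each search took exact letters within these windows, so lack of a match does not show that an element is absent. A gene counted if any of its windows matched. All genes with a window were counted whether or not they were expressed here, while the members all passed the filter on low counts. The windows of INSIG1, SREBF2, HMGCS1, SCD and MSMO1 are shown because the results below turn on these genes, with the sterol regulatory element, the palindrome and the CCAAT letters of either strand in capitals.
INSIG1 chr7:155297628-155297927 (plus strand): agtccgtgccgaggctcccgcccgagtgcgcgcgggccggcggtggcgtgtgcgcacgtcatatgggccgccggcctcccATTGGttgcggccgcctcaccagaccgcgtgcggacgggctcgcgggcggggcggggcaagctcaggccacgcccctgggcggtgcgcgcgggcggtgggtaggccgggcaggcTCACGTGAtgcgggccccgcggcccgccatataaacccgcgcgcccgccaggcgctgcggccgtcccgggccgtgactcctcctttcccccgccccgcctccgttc
SREBF2 chr22:41832855-41833154 (plus strand): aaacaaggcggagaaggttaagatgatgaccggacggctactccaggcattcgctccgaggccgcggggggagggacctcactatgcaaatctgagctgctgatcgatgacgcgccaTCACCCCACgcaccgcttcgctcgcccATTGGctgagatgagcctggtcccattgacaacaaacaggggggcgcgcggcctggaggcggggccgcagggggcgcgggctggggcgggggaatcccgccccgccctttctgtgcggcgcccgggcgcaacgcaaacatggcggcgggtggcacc
HMGCS1 chr5:43313363-43313662 (minus strand): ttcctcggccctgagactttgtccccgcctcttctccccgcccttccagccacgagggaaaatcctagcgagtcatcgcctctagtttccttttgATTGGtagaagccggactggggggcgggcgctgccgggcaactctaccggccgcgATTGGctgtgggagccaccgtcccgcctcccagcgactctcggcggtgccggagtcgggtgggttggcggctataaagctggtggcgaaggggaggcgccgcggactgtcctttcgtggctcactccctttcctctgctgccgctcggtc
SCD chr10:100346983-100347282 (plus strand): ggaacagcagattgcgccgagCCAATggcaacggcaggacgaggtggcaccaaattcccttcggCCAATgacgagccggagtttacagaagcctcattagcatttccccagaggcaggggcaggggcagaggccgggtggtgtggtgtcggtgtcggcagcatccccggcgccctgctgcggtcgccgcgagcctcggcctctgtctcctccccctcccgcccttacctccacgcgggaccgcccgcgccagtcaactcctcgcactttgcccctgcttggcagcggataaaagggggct
MSMO1 chr4:165327419-165327718 (plus strand): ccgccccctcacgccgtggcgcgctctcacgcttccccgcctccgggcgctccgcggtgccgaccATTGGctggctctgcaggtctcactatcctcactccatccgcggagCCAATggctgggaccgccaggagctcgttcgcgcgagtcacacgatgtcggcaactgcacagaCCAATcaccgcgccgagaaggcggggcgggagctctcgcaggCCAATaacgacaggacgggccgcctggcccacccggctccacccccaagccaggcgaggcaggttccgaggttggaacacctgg
Counted from the start of transcription, the palindrome began at -56 and a reversed CCAAT at -170 in INSIG1, and the sterol element at -133 and a reversed CCAAT at -106 in SREBF2. HMGCS1 has 2 windows in the table, of which the first is shown. CCAAT on either strand began at -155 and -100 in HMGCS1, at -229 and -186 in SCD, and at -185, -139, -76 and -34 in MSMO1.

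KO cultures were compared with WT cultures to ask which transcripts differed in cells grown without GATA6. Of the 32 members, 20 (62.5%) were higher in KO cultures and 3 (9.38%) lower, against 30.4% and 28.7% of the 13740 genes tested (edgeR, adjusted p under 0.05). The median log2 fold change was 0.37 over the members and 0.02 over all genes. Of all calls 51.4% were higher in KO cultures, against 62.2% with total-count scaling and 74.3% on the TPM scale, where the median of all genes moved by 0.19 and that of the members was 0.55. SCD, INSIG1, MSMO1 and ACSS2 rose most, FADS1, ELOVL6 and ACLY fell, and no call was lost when any 1 library was left out. Summed markers moved with the groups: those of colon epithelium stood at 18978 to 19879 TPM in KO cultures and 14406 to 15226 TPM in WT cultures, those of leukocytes at 22.2 to 23.0 TPM in KO and 4.50 to 5.14 TPM in WT cultures, and those of hepatocytes at 20.8 to 26.8 TPM in KO and 4.80 to 8.79 TPM in WT cultures. In each library 1 or 2 of the 6 leukocyte markers and 1 or 2 of the 6 hepatocyte markers reached 1 TPM, PTPRC (the pan-leukocyte marker) stood at no more than 0.04 TPM in KO and 0.08 TPM in WT cultures, and ALB (albumin) at no more than 0.09 TPM in KO and 0.08 TPM in WT cultures. Of the 7 colon markers tested 2 rose (KRT8 by 0.29 and KRT18 by 0.15 on the log2 scale) and 4 fell (VIL1, CDX2, CDH17 and CDH1, with log2 fold changes of -2.45, -0.90, -0.57 and -0.27). The part of the colon markers in the result was not tested.

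In the mevalonate branch 5 of 7 enzymes rose in KO cultures and none fell, by edgeR and DESeq2 and also at an unadjusted p under 0.05. FDPS, farnesyl diphosphate synthase (ENSG00000160752, hg38 chromosome 1, 155308748 to 155320666, plus strand, protein-coding), stood at 418, 454 and 434 CPM in KO cultures and 303, 311 and 291 CPM in WT cultures (log2 fold change 0.53, SE 0.04, edgeR adjusted p = 6.79e-08). MVK, mevalonate kinase, stood at 33.1, 34.2 and 34.1 CPM in KO cultures and 22.9, 22.2 and 22.8 CPM in WT cultures (log2 fold change 0.58, SE 0.06, edgeR adjusted p = 1.64e-06). The groups did not overlap for either gene, nor for MVD, IDI1 and ACAT2, the mevalonate diphosphate decarboxylase, the isoprene isomerase and the thiolase of the first step, which rose by 0.53, 0.52 and 0.36 on the log2 scale. HMGCS1, which makes HMG-CoA, did not pass the test (432, 421 and 434 CPM in KO cultures and 432, 409 and 431 CPM in WT cultures; log2 fold change 0.02, SE 0.04, edgeR adjusted p = 0.742), but was called higher on the TPM scale (0.25, limma adjusted p = 0.0162) and with total-count scaling (0.11, edgeR adjusted p = 0.027). PMVK, phosphomevalonate kinase, did not pass (-0.12, edgeR adjusted p = 0.392).

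Of the 11 enzymes from squalene to cholesterol, 8 rose in KO cultures and none fell, again by both tools and at an unadjusted p under 0.05. MSMO1, the methylsterol monooxygenase (ENSG00000052802, hg38 chromosome 4, 165327623 to 165343160, plus strand, protein-coding), stood at 429, 453 and 449.8 CPM in KO cultures and 214, 206 and 223 CPM in WT cultures, 2.07-fold higher (log2 fold change 1.05, SE 0.04, edgeR adjusted p = 2.89e-11). FDFT1, squalene synthase, stood at 639.9, 687 and 679 CPM in KO cultures and 419, 417 and 401 CPM in WT cultures (log2 fold change 0.70, SE 0.04, edgeR adjusted p = 2.18e-09). Each KO library was above each WT library for both. CYP51A1 (the lanosterol demethylase), NSDHL (a sterol dehydrogenase) and EBP (a sterol isomerase) rose by 0.69, 0.68 and 0.57 on the log2 scale, and SC5D, SQLE and DHCR7 (a sterol desaturase, squalene epoxidase and the final reductase) by 0.33, 0.32 and 0.29. LSS (lanosterol synthase), TM7SF2 (a sterol reductase) and HSD17B7 (a sterol ketoreductase) had log2 fold changes of -0.05, 0.02 and -0.05 and did not pass.

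Among the regulators, INSIG1, SREBF2 and STARD4 rose in KO cultures. INSIG1 (ENSG00000186480, hg38 chromosome 7, 155297776 to 155310235, plus strand, protein-coding) stood at 283, 294 and 272 CPM in KO cultures and 147, 138 and 169.8 CPM in WT cultures, 1.87-fold higher (log2 fold change 0.90, SE 0.07, edgeR adjusted p = 1.84e-06). SREBF2 stood at 307, 309 and 310.5 CPM in KO cultures and 242, 238 and 232 CPM in WT cultures (log2 fold change 0.38, SE 0.04, edgeR adjusted p = 6.33e-07). STARD4, a carrier that moves cholesterol through the cytosol, rose by 0.56 on the log2 scale (edgeR adjusted p = 3.9e-07). SREBF1, INSIG2 and SCAP had log2 fold changes of 0.10, 0.15 and -0.07, none past the threshold.

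The fatty acid enzymes divided. SCD, the desaturase that makes oleate from stearate (ENSG00000099194, hg38 chromosome 10, 100347124 to 100364834, plus strand, protein-coding), stood at 2564, 2462 and 2496 CPM in KO cultures and 1003, 942 and 936 CPM in WT cultures, 2.61-fold higher (log2 fold change 1.38, SE 0.04, edgeR adjusted p = 1.48e-12). ACSS2, which makes acetyl-CoA from acetate, stood at 119.8, 114 and 115 CPM in KO cultures and 60.5, 61.7 and 66.2 CPM in WT cultures (log2 fold change 0.89, SE 0.05, edgeR adjusted p = 1.07e-09). FASN, fatty acid synthase, rose by 0.39 and FADS2, a desaturase of polyunsaturated fatty acids, by 0.50 on the log2 scale. ELOVL6, which lengthens palmitate to stearate (ENSG00000170522, hg38 chromosome 4, 110045846 to 110199199, minus strand, protein-coding), stood at 27.4, 25.97 and 29.1 CPM in KO cultures and 45.2, 48.5 and 49.1 CPM in WT cultures (log2 fold change -0.79, SE 0.07, edgeR adjusted p = 5.83e-08). FADS1, the desaturase that acts after FADS2, stood at 1.76, 1.02 and 1.45 CPM in KO cultures and 7.49, 7.58 and 6.67 CPM in WT cultures (log2 fold change -2.37, SE 0.20, edgeR adjusted p = 7.8e-08). SCD, ACSS2, ELOVL6 and FADS1 each separated the groups completely. ACLY, which makes cytosolic acetyl-CoA from citrate, had 392, 361 and 398 CPM in KO cultures and 462, 466.06 and 438 CPM in WT cultures (log2 fold change -0.25, SE 0.05, edgeR adjusted p = 0.000252), but on the TPM scale its log2 difference was -0.05 (limma adjusted p = 0.526). ACACA, acetyl-CoA carboxylase, did not pass (0.05, edgeR adjusted p = 0.37). Exons of FADS1 and FADS2 overlap on opposite strands in GENCODE 29, and the strand setting of the counting is not given in the sources used here, so reads of the pair may be shared.

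**Figure D2:**
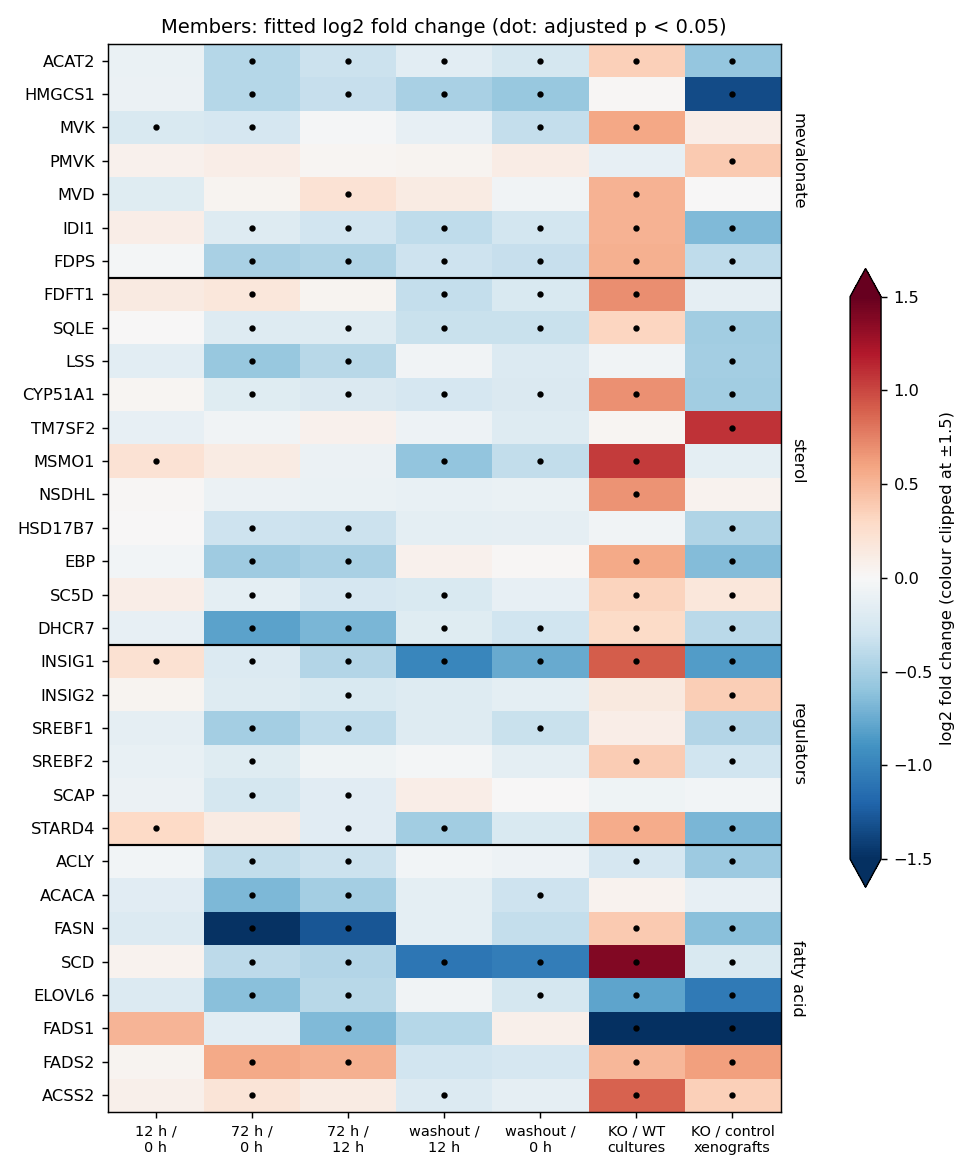
Fitted log2 fold change of each of the 32 genes (rows, grouped by role) in 7 comparisons (columns); red is higher and blue lower in the group named before the slash, 0 h is the degron control, and dots mark an edgeR adjusted p under 0.05. The column of KO over WT cultures is mostly red (20 genes higher), and those of 72 h over 0 h (21 lower), washout over 12 h (14 lower) and KO over control xenografts (19 lower) are mostly blue.

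In xenografts the direction was the other way. Of the 32 members, 19 (59.4%) were lower in KO than in control xenografts and 6 (18.8%) higher, against 28.1% and 28% of the 14996 genes tested, and the median log2 fold change was -0.40 over the members and -0.01 over all genes. The largest falls above 1 TPM were those of HMGCS1 and ELOVL6, and the largest rise was that of TM7SF2. Summed markers of colon epithelium stood at 9029 to 11175 TPM in KO xenografts and 6548 to 7935 TPM in control xenografts, but of the 8 markers 4 rose (KRT8, KRT18, EPCAM and CDH1, by 0.86, 0.42, 0.20 and 0.18 on the log2 scale) and 4 fell (LGALS4, VIL1, CDH17 and CDX2, with log2 fold changes of -6.41, -4.19, -1.24 and -0.38). Summed markers of fibroblasts overlapped (1.97 to 4.36 TPM in KO and 1.63 to 3.46 TPM in control xenografts). They were read from human identifiers. Whether mouse reads were counted under these is not known, so the sums give no measure of mouse cells. The part of these markers in the result was not tested.

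HMGCS1 (ENSG00000112972, hg38 chromosome 5, 43289395 to 43313512, minus strand, protein-coding) stood at 99.4, 85.8, 122, 89.6 and 102 CPM in KO xenografts and 276, 244, 272, 267 and 206 CPM in control xenografts, 2.53-fold lower (log2 fold change -1.34, SE 0.10, edgeR adjusted p = 5.43e-08). IDI1 stood at 49.9, 45.3, 56.4, 41.3 and 50.9 CPM in KO xenografts and 78.4, 64.8, 91.5, 82.2 and 68.9 CPM in control xenografts (log2 fold change -0.66, SE 0.10, edgeR adjusted p = 5.26e-05). No KO library reached the lowest control library for either gene. ACAT2 and FDPS fell by 0.58 and 0.39 on the log2 scale, so 4 of 7 mevalonate enzymes fell. PMVK rose (20.97, 21.8, 27.6, 19.2 and 21.8 CPM in KO xenografts and 16.96, 16.4, 16.5, 17.2 and 17.8 CPM in control xenografts; log2 fold change 0.39, SE 0.09, edgeR adjusted p = 0.00197), and MVK and MVD, at 0.10 and 0.01, did not pass.

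Of the enzymes from squalene to cholesterol 6 of 11 fell in KO xenografts and 2 rose. EBP fell most, with 53.5, 35.7, 51.5, 35.5 and 34.8 CPM in KO xenografts and 65.7, 67.3, 68.2, 62.6 and 67.2 CPM in control xenografts (log2 fold change -0.65, SE 0.12, edgeR adjusted p = 0.000346). SQLE, CYP51A1, LSS, HSD17B7 and DHCR7 fell by 0.52, 0.52, 0.51, 0.45 and 0.41 on the log2 scale. TM7SF2 went against them. It stood at 55.9, 65.2, 52.8, 55.8 and 52.6 CPM in KO xenografts and 26.7, 24.5, 26.9, 23.7 and 31.8 CPM in control xenografts, 2.12-fold higher (log2 fold change 1.08, SE 0.09, edgeR adjusted p = 7.52e-08), with each KO library above each control library. Its exons overlap those of VPS51 on the same strand. The rise of SC5D (0.17, edgeR adjusted p = 0.0366) was lost on the TPM scale (0.05, limma adjusted p = 0.647) and when control replicate 1, 2 or 5 or KO replicate 3 was left out (edgeR adjusted p 0.0608 to 0.103). FDFT1, MSMO1 and NSDHL did not pass, with log2 fold changes of -0.14, -0.15 and 0.05.

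Among the regulators INSIG1, STARD4, SREBF1 and SREBF2 fell in KO xenografts, and INSIG2 rose. INSIG1 stood at 50.002, 48.8, 57.5, 50.3 and 56.8 CPM in KO xenografts and 110.4, 77.6, 107, 95.5 and 80.00 CPM in control xenografts, 1.78-fold lower (log2 fold change -0.84, SE 0.10, edgeR adjusted p = 5.16e-06). STARD4 stood at 36.3, 30.9, 36.4, 37.6 and 29.9 CPM in KO xenografts and 56.2, 50.8, 60.02, 59.2 and 48.7 CPM in control xenografts (log2 fold change -0.68, SE 0.08, edgeR adjusted p = 6.24e-06). Neither gene's groups overlapped. SREBF1 fell by 0.44 and SREBF2 by 0.30. INSIG2, the second INSIG protein, stood at 21.4, 24.4, 20.3, 28.1 and 31.1 CPM in KO xenografts and 21.9, 18.7, 20.7, 18.9 and 16.5 CPM in control xenografts, with overlapping groups (log2 fold change 0.37, SE 0.12, edgeR adjusted p = 0.0124), and did not pass on the TPM scale (0.29, limma adjusted p = 0.072). SCAP did not pass (-0.04, edgeR adjusted p = 0.545).

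Of the fatty acid enzymes 5 of 8 fell in KO xenografts. FASN stood at 421, 465, 534, 399 and 512 CPM in KO xenografts and 701, 747, 728, 748 and 665 CPM in control xenografts (log2 fold change -0.62, SE 0.08, edgeR adjusted p = 1.19e-05). ELOVL6 stood at 20.3, 17.7, 25.9, 18.7 and 19.2 CPM in KO xenografts and 43.6, 41.96, 43.1, 45.5 and 37.3 CPM in control xenografts (log2 fold change -1.06, SE 0.10, edgeR adjusted p = 2.92e-07). Both separated the groups. FADS1 fell 4.13-fold at a low level (0.926, 1.35, 1.58, 0.926 and 0.878 CPM in KO xenografts and 4.68, 5.80, 4.82, 4.37 and 3.97 CPM in control xenografts), and ACLY fell by 0.55 on the log2 scale. SCD, which rose most in KO cultures, had 375, 421, 471, 423 and 483 CPM in KO xenografts and 581, 487, 531, 501 and 449.8 CPM in control xenografts, which overlap (log2 fold change -0.23, SE 0.08, edgeR adjusted p = 0.0279). That call was lost when control replicate 1 or 3 or KO replicate 1, 2 or 4 was left out (edgeR adjusted p 0.053 to 0.0864). FADS2 and ACSS2 rose by 0.61 and 0.36, and ACACA did not pass (-0.13, edgeR adjusted p = 0.179).

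The difference between the knockout effects in xenografts and in cultures was tested directly. The xenograft effect was lower than the culture effect for 23 members (71.9%) and higher for 2 (6.25%), against 14.4% and 12.6% of the 16021 genes tested, with a median difference of -0.57 over the members and 0.00 over all genes. The differences were largest for INSIG1 (difference -1.72, SE 0.15, edgeR adjusted p = 5.02e-08), SCD (difference -1.60, SE 0.12, edgeR adjusted p = 3.97e-09) and HMGCS1 (difference -1.34, SE 0.14, edgeR adjusted p = 4.81e-07). TM7SF2 (difference 1.07, SE 0.13, edgeR adjusted p = 1.99e-06) and PMVK (difference 0.53, SE 0.15, edgeR adjusted p = 0.00996) were the 2 members with a higher effect in xenografts, and that of PMVK did not pass on the TPM scale (0.24, limma adjusted p = 0.144). Effects did not differ past the threshold for ELOVL6 (-0.25), FADS1 (0.34), FADS2 (0.13), ACACA (-0.16), SC5D (-0.15), INSIG2 (0.24) and SCAP (0.04), although ELOVL6 (-0.64) and SC5D (-0.33) passed on the TPM scale. Growth in mice, its duration and the annotation behind the files differ between these systems as well and cannot be told apart. With log2(TPM + 0.1) the median of all genes moved by -0.27 and that of the members was -0.85, with 15.6% of all calls higher instead of 46.8%; with total-count scaling 32.5% were higher.

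Of the 32 members, 12 (37.5%) were higher in KO cultures and lower in KO xenografts, against 3.59% of the 13113 genes tested in both: ACAT2, IDI1, FDPS, SQLE, CYP51A1, EBP, DHCR7, INSIG1, SREBF2, STARD4, FASN and SCD. They are 60.0% of the 20 members higher in KO cultures and 63.2% of the 19 lower in KO xenografts, against 11.8% and 12% when the same shares are taken over all genes. SC5D, FADS2 and ACSS2 were higher in both and ACLY, ELOVL6 and FADS1 lower in both, and the shares of all genes that were so were not counted.

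**Figure D3:**
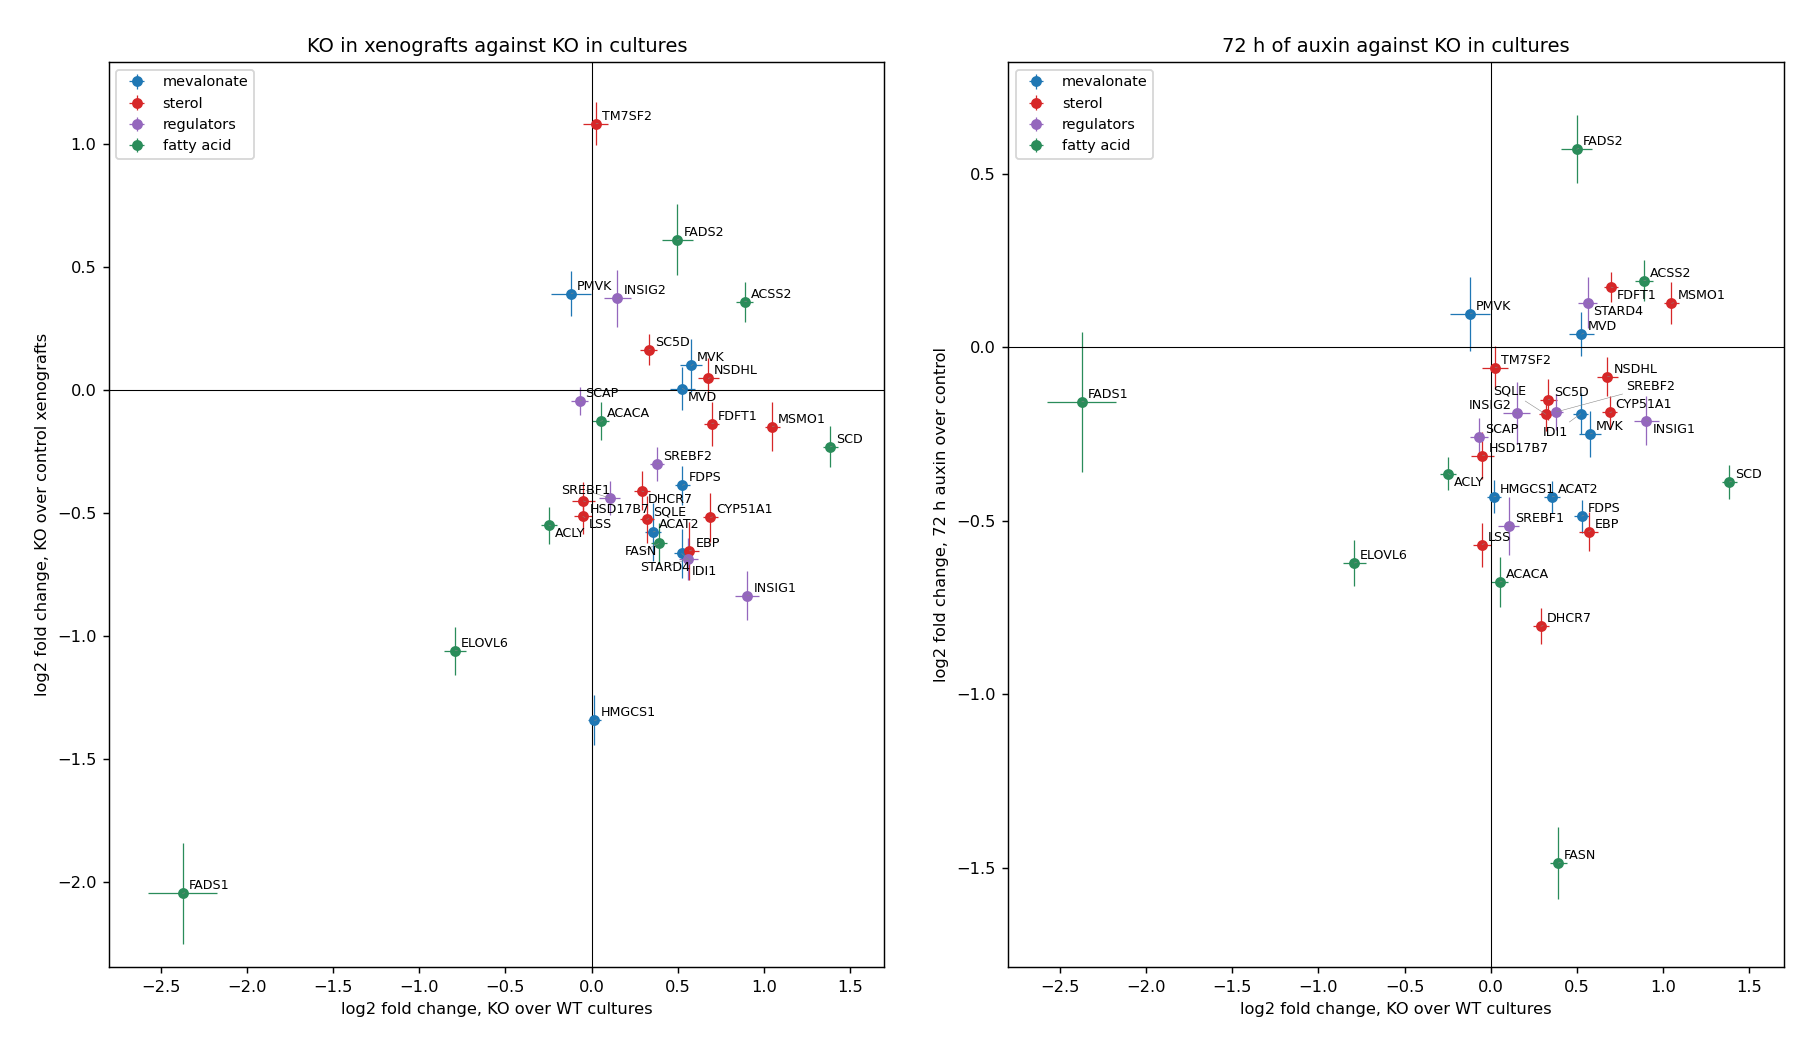
Each point is 1 gene, placed by its log2 fold change in KO over WT cultures (horizontal) and, vertically, in KO over control xenografts (left) or 72 h of auxin over control (right); whiskers are 1 SE and colours are roles. Most genes lie to the right of the vertical line and below the horizontal line in each panel. FADS2, ACSS2, PMVK and MVD lie above the horizontal line in both, and TM7SF2 (1.08) is highest above it in xenografts.

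After 72 h of auxin 21 of the 32 members (65.6%) were lower than in control cells and 3 (9.38%) higher, against 29.5% and 28.3% of the 14029 genes tested. Without SREBF1, whose value turned on the TPM scale, 20 (62.5%) were lower. The median log2 fold change was -0.20 over the members and 0.00 over all genes. FASN fell furthest, then DHCR7, ACACA and ELOVL6, and FADS2 rose. These counts depend on the scaling. Total-count scaling moved the median of all genes by 0.12 (65.0% of all calls higher instead of 48.9%). Then 14 members were lower and 6 higher, against 2911 and 5412 of the 14029 genes tested. The medians were -0.08 over the members and 0.12 over all genes. On the TPM scale (64.0% of all calls higher) 10 members were lower, against 2419 of 15123 genes, with medians of -0.10 and 0.12. Colon epithelium markers summed to 13209 to 13603 TPM at 72 h and 10791 to 11589 TPM in control cells. By edgeR, KRT8 and KRT18 were higher (0.17 and 0.15 on the log2 scale) and 4 of the 7 markers tested lower (CDH17, EPCAM, CDX2 and CDH1, at -0.64, -0.43, -0.34 and -0.18). In TPM, CDX2 stood at 132 to 154 at 72 h and 109 to 134 in control cells. CDH1 stood at 215 to 243 TPM at 72 h and 213 to 236 TPM in control cells. No direction is therefore given for CDX2 and CDH1 at this time. Hepatocyte markers summed to 7.82 to 10.1 TPM at 72 h and 2.29 to 2.75 TPM in control cells, with 2 of 6 at 1 TPM or more at 72 h and 1 of 6 in control cells. Their part in the result was not tested.

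FASN (ENSG00000169710, hg38 chromosome 17, 82078333 to 82098332, minus strand, protein-coding) stood at 530.1, 505 and 477 CPM at 72 h and 1276, 1544 and 1415 CPM in control cells, 2.80-fold lower (log2 fold change -1.49, SE 0.10, edgeR adjusted p = 6.09e-07). ACACA stood at 115, 115 and 111 CPM at 72 h and 176, 183 and 187 CPM in control cells (log2 fold change -0.68, SE 0.07, edgeR adjusted p = 2.76e-07). The carboxylase and the synthase, which act in sequence, both separated the groups. SCD, ACLY and ELOVL6 fell by 0.39, 0.36 and 0.62 on the log2 scale. FADS2 stood at 17.9, 19.2 and 20.3 CPM at 72 h and 11.7, 11.9 and 15.1 CPM in control cells (log2 fold change 0.57, SE 0.10, edgeR adjusted p = 2.16e-05). ACSS2 rose by 0.19, a call lost without control replicate 1 (edgeR adjusted p = 0.0571), and FADS1 did not pass (-0.16, edgeR adjusted p = 0.526). On the TPM scale the fall of ELOVL6 was -0.35 and did not pass (limma adjusted p = 0.157).

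DHCR7 (ENSG00000172893, hg38 chromosome 11, 71428193 to 71452868, minus strand, protein-coding) stood at 123, 123 and 125 CPM at 72 h and 206, 221 and 220.0 CPM in control cells, 1.75-fold lower (log2 fold change -0.80, SE 0.05, edgeR adjusted p = 3.46e-12). LSS stood at 64.1, 59.9 and 63.7 CPM at 72 h and 83.1, 101 and 94.5 CPM in control cells (log2 fold change -0.57, SE 0.06, edgeR adjusted p = 4.12e-08). EBP and HSD17B7 fell by 0.53 and 0.31, and SQLE, CYP51A1 and SC5D by 0.19, 0.19 and 0.15, so 7 of 11 enzymes of the sterol branch fell. FDFT1 rose (325, 327 and 319 CPM at 72 h and 279.6, 285 and 297 CPM in control cells; log2 fold change 0.17, SE 0.04, edgeR adjusted p = 0.00106). MSMO1, NSDHL and TM7SF2, at 0.13, -0.08 and -0.06, did not pass. In the mevalonate branch FDPS, ACAT2, HMGCS1, MVK and IDI1 fell by 0.49, 0.43, 0.43, 0.25 and 0.19, and PMVK and MVD did not pass (0.10 and 0.04).

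Among the regulators SCAP, INSIG1 and SREBF2 fell by 0.26, 0.21 and 0.19 at 72 h, and INSIG2 and STARD4 did not pass (-0.19 and 0.13). SREBF1 stood at 85.1, 84.2 and 82.3 CPM at 72 h and 107, 127 and 126 CPM in control cells (log2 fold change -0.51, SE 0.08, edgeR adjusted p = 6.86e-05). On the TPM scale, which divides by transcript length, it stood at 53.3, 42.2 and 41.2 TPM at 72 h and 42.6, 48.3 and 43.4 TPM in control cells, and its log2 difference was 0.02 (limma adjusted p = 0.926), so no direction is given for SREBF1 at this time. The falls of MVK, IDI1, SQLE, CYP51A1, SC5D, INSIG1 and SREBF2 did not pass with total-count scaling or on the TPM scale, and those of HSD17B7 and SCAP did not pass on the TPM scale. Leaving out control replicate 3 ended the calls of IDI1 (edgeR adjusted p = 0.0646) and INSIG1, leaving out 72 h replicate 1 that of INSIG1 (edgeR adjusted p 0.055 to 0.139), and leaving out control replicate 1 or 3 or 72 h replicate 1 or 2 that of SC5D (0.0771 to 0.166).

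At 12 h of auxin the members had barely moved. MSMO1, STARD4 and INSIG1 were higher than in control cells (9.38% of the members, against 4.04% of genes tested) and MVK was lower (3.13%, against 3.35%), and the median was -0.02 over the members and -0.01 over all genes. Of all calls 54.7% were higher, against 66.9% with total-count scaling and 73.8% on the TPM scale. In degron cells MSMO1 stood at 113, 99.4 and 119.7 CPM in controls, 126, 125 and 135 CPM at 12 h and 115, 121 and 126 CPM at 72 h. Its change at 12 h was small (log2 fold change 0.22, SE 0.06, edgeR adjusted p = 0.0268), as were those of STARD4 (0.30), INSIG1 (0.23) and MVK (-0.23). Without the 4 libraries that hold haemoglobin transcripts no member passed, with edgeR adjusted p from 0.176 to 0.451 for these 4 genes. That fit kept 1 of 3 libraries at 12 h, and the count over all genes was 333, against 1037 with all libraries. Each of the 4 calls was also lost when any of 2 to 5 single libraries of the groups compared was left out (edgeR adjusted p 0.0546 to 0.246). Set against 12 h in place of control cells, 72 h had 22 members lower (68.8%) and 2 higher (6.25%), against 28.6% and 26.8% of genes tested. The higher ones were MVD (0.22) and FADS2 (0.53). On the TPM scale MVD did not pass (0.15, limma adjusted p = 0.172), and FDFT1 was called higher (0.12). The falls of SREBF1 (-0.04 on that scale), SQLE, SCAP, STARD4, ELOVL6 and FADS1 did not pass there either. Of all calls 48.4% were higher, against 62.8% with total-count scaling and 59.4% on the TPM scale. Without the 4 haemoglobin-bearing libraries, which leaves 1 library at 12 h, the median was -0.30 over the members and -0.003 over all genes.

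Between 12 h of auxin and 24 h after its removal, 14 of the 32 members fell (43.8%) and 0 rose, against 8.15% and 9.27% of genes tested; 0 also rose at an unadjusted p under 0.05 by edgeR and by DESeq2. The median log2 fold change was -0.19 over the members and 0.00 over all genes. SCD and INSIG1 fell most, followed by MSMO1, STARD4 and HMGCS1. SCD stood at 306, 278 and 290.2 CPM after washout, against 629, 584 and 640.1 CPM at 12 h and 592, 573 and 626 CPM in control cells. INSIG1 stood at 48.1, 53.8 and 47.4 CPM after washout, against 93.9, 94.1 and 107 CPM at 12 h and 79.9, 77.5 and 94.7 CPM in control cells. For both genes each washout library lay below each 12 h and each control library. The log2 fold changes of SCD were -1.08 (SE 0.05) against 12 h and -1.03 (SE 0.05) against control cells (edgeR adjusted p = 4.61e-14 and 4.13e-13). Those of INSIG1 were -0.98 (SE 0.07) and -0.76 (SE 0.07) (edgeR adjusted p = 3.51e-09 and 1.14e-06).

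HMGCS1 stood at 208, 212 and 190.1 CPM after washout, against 283, 278 and 292 CPM at 12 h and 309.9, 289 and 305 CPM in control cells (log2 fold change -0.48, SE 0.05, edgeR adjusted p = 1.26e-07 against 12 h). The other calls against 12 h were falls of 0.59 for MSMO1, 0.52 for STARD4, 0.38 for IDI1, 0.36 for FDFT1, 0.34 for SQLE, 0.31 for FDPS, 0.25 for CYP51A1, 0.22 for SC5D, 0.21 for ACSS2, 0.18 for DHCR7 and 0.16 for ACAT2. FASN, ACACA, ACLY and ELOVL6, the enzymes that build and lengthen saturated fatty acids, had log2 fold changes of -0.14, -0.15, -0.04 and -0.06, and none passed. Leaving out 1 library ended the calls of ACAT2 (12 h replicate 1 or 2 or washout replicate 1; edgeR adjusted p 0.0714 to 0.126), DHCR7 (12 h replicate 1 or washout replicate 2; 0.065 to 0.11), SC5D (12 h replicate 1 or washout replicate 3; 0.0604 to 0.0793) and ACSS2 (12 h replicate 3 or washout replicate 2; 0.058 to 0.0696).

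Against control cells 15 members were lower after washout (46.9%) and 0 higher (also 0 at an unadjusted p under 0.05 and by DESeq2), against 2.36% and 2.64% of genes tested by edgeR, with a median of -0.22 over the members and 0.00 over all genes. They were SCD, INSIG1 and HMGCS1 (-0.57), then MSMO1 (-0.37), MVK (-0.35), FDPS (-0.34), SQLE (-0.34), SREBF1 (-0.33), ACACA (-0.32), DHCR7 (-0.30), IDI1 (-0.28), ELOVL6 (-0.27), ACAT2 (-0.26), FDFT1 (-0.22) and CYP51A1 (-0.22). FASN (-0.35, edgeR adjusted p = 0.0854) did not pass, but was called lower by DESeq2 (-0.35, DESeq2 adjusted p = 0.0313), without the filter on low counts (edgeR adjusted p = 4.95e-06) and without washout replicate 3 (-0.44, edgeR adjusted p = 0.0442). Leaving out the 4 libraries with haemoglobin transcripts left 1 library at 12 h and 1 after washout. The members' median was then -0.24 against 12 h and -0.24 against control cells. Over all genes it was 0.003 and -0.005. In that fit the log2 fold changes against control cells were -0.50 for FASN, -0.28 for SQLE, -0.22 for CYP51A1 and -0.21 for IDI1. Several of the calls against 12 h and against control cells did not hold in it. With 1 library in a group they are not counted here. On the TPM scale 8 members, and 116 of the 15123 genes tested, were lower than in control cells. Calls lost when a single library was left out were those of SREBF1, CYP51A1, ELOVL6, ACACA and IDI1 (2 to 4 libraries each, edgeR adjusted p 0.0504 to 0.141).

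The effects of 72 h of auxin and of knockout in culture were also compared directly. The 72 h effect was lower for 25 members (78.1%) and higher for 1 (3.13%), against 21.1% and 23% of the 14714 genes tested, with a median difference of -0.53 over the members and 0.01 over all genes. On the TPM scale 39.8% of all calls were higher, against 52.1%. The differences were largest for FASN (difference -1.86, SE 0.13, edgeR adjusted p = 2.44e-08) and SCD (difference -1.76, SE 0.07, edgeR adjusted p = 5.51e-17), followed by INSIG1, EBP, DHCR7 and FDPS, at -1.10, -1.08, -1.08 and -1.0001. The differences of SREBF1 (-0.61) and INSIG2 (-0.33) did not pass on the TPM scale (-0.28 and -0.58, limma adjusted p = 0.244 and 0.0655). FADS1, which fell in KO cultures and did not pass at 72 h, was the member with the higher 72 h effect (difference 2.23, SE 0.29, edgeR adjusted p = 4.86e-07). Of the 32 members 13 (40.6%) were higher in KO cultures and lower at 72 h, against 4.11% of 13211 genes tested in both. They are 65.0% of the 20 higher in KO cultures and 61.9% of the 21 lower at 72 h, against 13.9% and 13.7% over all genes. Both at 72 h and in KO xenografts 17 members (53.1%) were lower, or 16 without SREBF1, against 14.3% of 13206 genes. The 17 are 81.0% of the 21 lower at 72 h and 89.5% of the 19 lower in KO xenografts, against 47.7% and 48.2% over all genes. Higher in KO cultures and lower after washout than at 12 h were 13 members (40.6%), against 3.83% of 13211 genes. They are 65.0% of the 20 higher in KO cultures and 92.9% of the 14 lower after washout, against 12.9% and 44.7% over all genes. By these edgeR calls ACAT2, IDI1, FDPS, SQLE, CYP51A1, DHCR7, INSIG1 and SCD followed all of these patterns. The share of all genes that did so was not counted. For most of these members at least 1 of the calls is not firm. The falls of IDI1, SQLE, CYP51A1 and INSIG1 at 72 h did not pass with total-count scaling or on the TPM scale. Leaving out 1 library could end the call of SCD in xenografts. It could also end those of ACAT2 and DHCR7 after washout against 12 h. The clone, the tag and the length of GATA6 loss differ between the degron and KO cells and cannot be told apart.

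Levels were compared between genes in TPM, the share of transcripts after division by length. In WT cultures FDPS (434 ± 3.46 TPM, SD, n = 3), FDFT1 (276 ± 4.00), SCD (221 ± 12.5) and HMGCS1 (181 ± 13.4) were the most abundant members, and FADS1 (2.15 ± 0.240), FADS2 (5.87 ± 0.147) and ELOVL6 (9.70 ± 0.477) the least. The WT libraries of HMGCS1 and FASN (168 ± 10.9 TPM) overlapped. In control degron cells FASN came next after FDPS, at 348 ± 28.9 TPM and 422 ± 11.4 TPM, and in control xenografts FDPS led at 263 ± 15.4 TPM. The 32 genes summed to 2258 TPM at 72 h, 2741 TPM at 12 h, 2223 TPM after washout and 2709 TPM in control degron cells. They summed to 4389 TPM in KO cultures and 2578 TPM in WT cultures, and to 1420 TPM in KO xenografts and 1876 TPM in control xenografts. Of the 8 groups the KO cultures had the highest mean TPM for 21 members and the KO xenografts the lowest for 22. The shares of all genes with that order were not counted. On log2(TPM + 0.1) the median difference of KO from WT cultures was 0.55 over the members and 0.21 over all genes. Between KO and control xenografts it was -0.47 over the members and -0.09 over all genes. The 3 systems were quantified against different annotation sets, so levels across them are set side by side and were not tested. SCD had the widest range of group means, from 72.9 ± 4.58 TPM after washout to 660.3 ± 26.4 TPM in KO cultures, and SREBF1, SCAP and SREBF2 had the narrowest, with 1.47-fold to 1.53-fold between their highest and lowest groups.

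**Figure D4:**
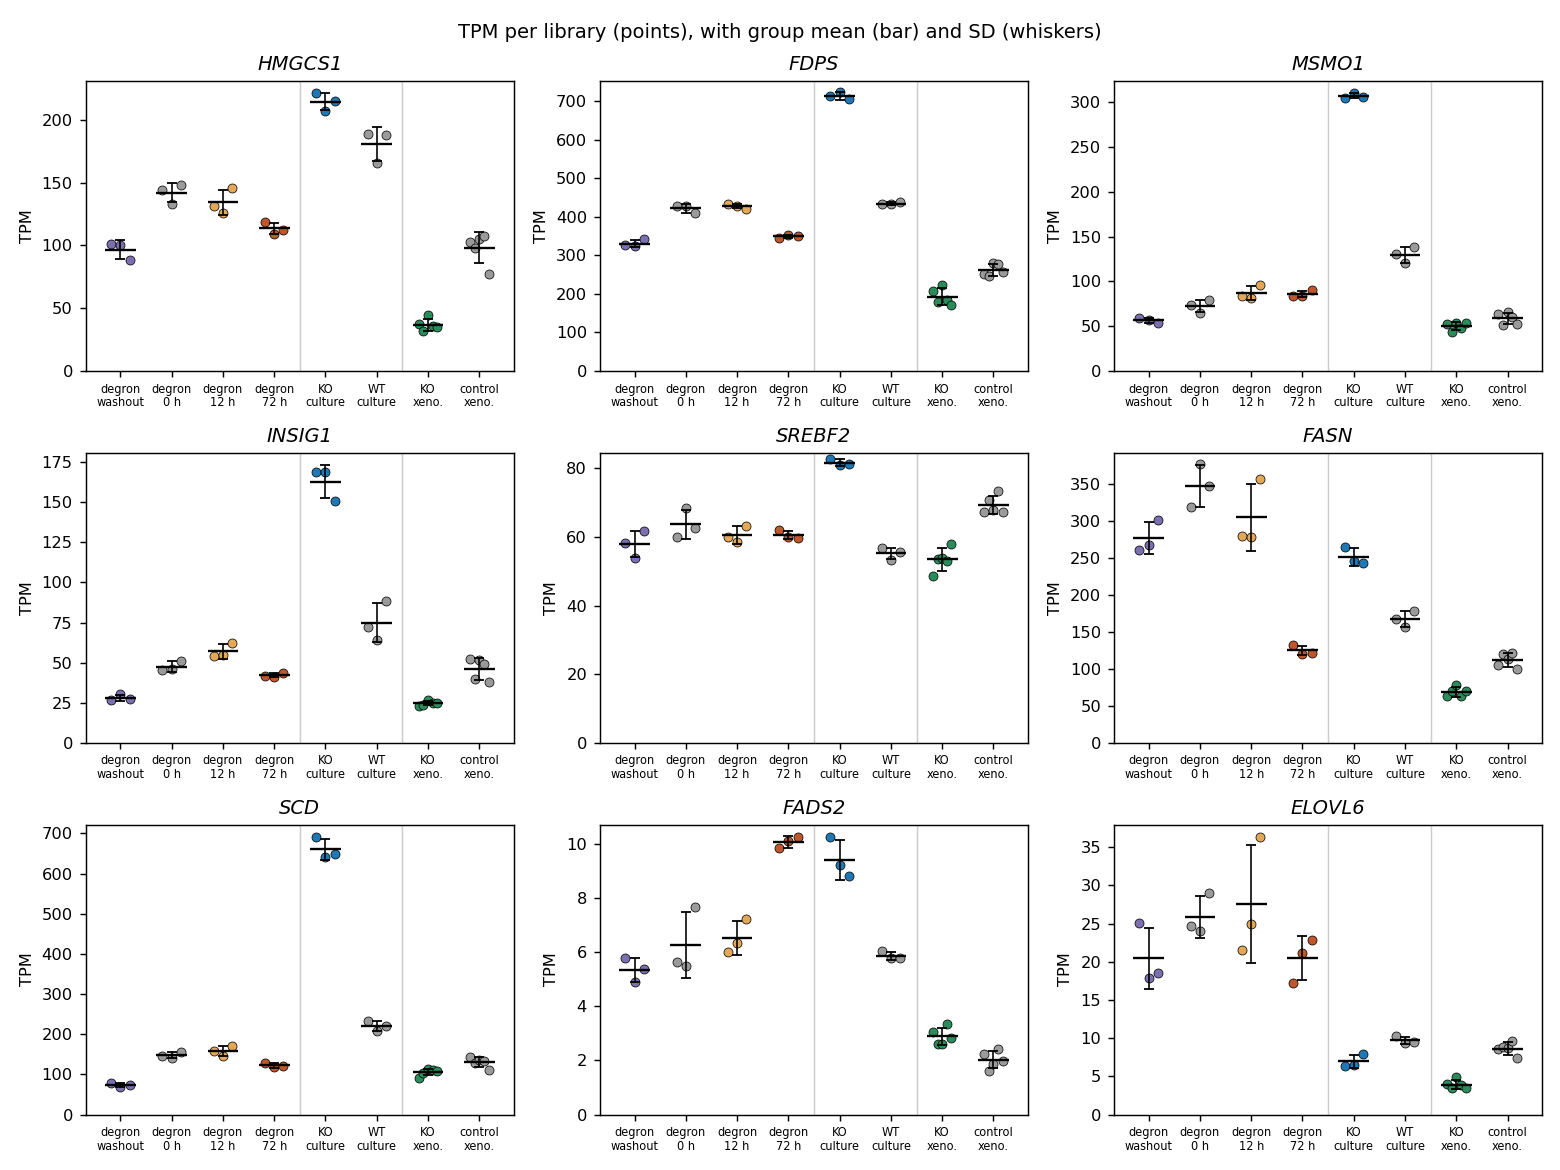
TPM of 9 members in each library (points) of the 8 groups, with group mean (bar) and SD (whiskers); grey lines part the degron, culture and xenograft systems. SCD, MSMO1 and INSIG1 are highest in KO cultures, FASN is lower at 72 h (121 to 133 TPM) than in control degron cells (319 to 377 TPM), and HMGCS1 in KO xenografts (32.1 to 44.5 TPM) lies below all control xenografts (77.01 to 108 TPM).

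Genes that act beside the members were followed through lists of the pathway. Their counts stand against 30.4% of all genes higher and 28.7% lower in KO cultures, and 28% higher and 28.1% lower in KO xenografts. In KO cultures 9 of 14 tested genes of sterol storage and transport rose and 1 fell: GRAMD1A, which carries cholesterol from the plasma membrane to the endoplasmic reticulum, averaged 15.6 ± 1.28 CPM in KO cultures and 1.52 ± 0.0681 CPM in WT cultures (3.35, edgeR adjusted p = 3.23e-11), the exporter ABCG1 7.97 ± 0.804 CPM in KO cultures and 0.490 ± 0.135 CPM in WT cultures (3.98, edgeR adjusted p = 7.37e-10), and the lysosomal transporter NPC1 100.3 ± 3.69 CPM in KO cultures and 53.8 ± 1.64 CPM in WT cultures (SD, n = 3; 0.90, edgeR adjusted p = 1.07e-09). Of 16 partners of fatty acid synthesis 10 rose and 1, the malic enzyme ME1, fell, and of 9 genes that process or degrade the sterol regulatory proteins 4 rose, among them RNF145 (0.55) and the protease MBTPS2 (0.50). Of 12 genes of fatty acid oxidation 2 rose and 6 fell. In KO xenografts 7 of 14 genes of sterol storage and transport rose and 1, TMEM97 (-0.74, edgeR adjusted p = 1.83e-06), fell, with NPC2 at 0.83 and SOAT1, which makes cholesterol esters, at 0.68. The partners of fatty acid synthesis had 3 higher and 6 lower there, and of the 9 processing genes 2 were higher.

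At 72 h of auxin 4 of 13 genes of storage and transport rose and 4 fell, close to the 28.3% of all genes higher and 29.5% lower, with MYLIP, a target of the liver X receptors, at 0.92, edgeR adjusted p = 1.55e-08. Of 9 genes that use isoprenoids 7 fell at 72 h, of 16 partners of fatty acid synthesis 8 fell and 5 rose, and of 12 genes of glycerolipids and lipid droplets 7 fell and 3 rose. After washout against 12 h, 4 of 16 partners fell, 3 of 13 storage and transport genes fell and 2 rose, and 4 of 12 glycerolipid genes rose, against 8.15% of all genes lower and 9.27% higher. The acyltransferase LPCAT3, another target of the liver X receptors, fell by 0.49 after washout against 12 h (edgeR adjusted p = 0.000115). At 12 h 4 of 16 partners rose and 1 fell, against 4.04% of all genes higher and 3.35% lower, and the cholesterol acyltransferase SOAT1 rose (0.36, edgeR adjusted p = 0.0004).

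The rule did not use position or sequence copies. In GENCODE 29 exons of 15 members overlap those of another gene, for 4 of them (CYP51A1, TM7SF2, FADS1 and FADS2) with a gene on the same strand, and FDPS has 8 pseudogenes named after it, CYP51A1 has 3, HSD17B7 has 2, and SCD and FADS2 have 1 each. Values of these genes are less certain where the counting could share reads.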

How the data were processed

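RNA of 28 libraries was measured by poly(A)-selected directional sequencing. Per the submitters' processing notes, Trim Galore 0.6.10, STAR and RSEM were used with hg38; the annotation and the strand setting are not given in the sources used here. The authors deposited RSEM expected counts and TPM (length-scaled shares of transcripts) per gene and sample. Expected counts were rounded and fitted per system with edgeR 4.0.16 (filterByExpr, TMM scaling, robust quasi-likelihood test, Benjamini-Hochberg adjusted p under 0.05, all genes; R 4.3.3). Each SE was taken from the fold change and the F statistic. Differences between effects came from 1 fit over both systems. Alternatives used DESeq2 1.42.0 and limma 3.58.1 on log2(TPM + 0.1) or log2(TPM + 1), for which fold changes of low genes are understated; genes under a mean of 0.5 TPM in every group were left out. Totals per library were 14569850 to 36500654 counts. The fits were tested on simulated data. Plots used Python 3.11.15 and matplotlib 3.10.9. The members and lists were chosen with earlier results of these data known. Every member is named; of each other list up to 3 genes with the smallest adjusted p in a comparison were, or others where the text says so. A further 4 cholesterol genes are not reported here. Gene positions are from GENCODE 29.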

Additional observations from a re-analysis of the deposited data

Results flagged for a closer look

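In the 64 sets of KO or control xenograft values of 1 gene, 2 held a library that stood apart from the others of its set; chance gives about 1 in 20. SQLE, squalene epoxidase, had 85.5 CPM in KO xenograft replicate 3 and 59.0 to 65.2 CPM in the other KO xenografts. TM7SF2, a sterol reductase, had 65.2 CPM in KO xenograft replicate 2 and 52.6 to 55.9 CPM in the other KO xenografts.

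The effect of 72 h of auxin differed from that of knockout in culture for 26 members by edgeR's test of the difference. The 72 h log2 fold change minus the KO log2 fold change was below 0 for 25 of them: FASN -1.86, SCD -1.76, INSIG1 -1.10, EBP -1.08, DHCR7 -1.08, FDPS -1.0001, MSMO1 -0.91, CYP51A1 -0.86, MVK -0.81, ACAT2 -0.77, NSDHL -0.75, ACACA -0.71, IDI1 -0.70, ACSS2 -0.68, SREBF1 -0.61, SREBF2 -0.55, FDFT1 -0.51, LSS -0.50, SQLE -0.50, MVD -0.47, SC5D -0.47, HMGCS1 -0.43, STARD4 -0.42, INSIG2 -0.33 and HSD17B7 -0.25. It was above 0 for FADS1 2.23. On the TPM scale SREBF1 (-0.28, limma adjusted p = 0.244) and INSIG2 (-0.58, limma adjusted p = 0.0655) did not pass.

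The effect of knockout in xenografts differed from that in cultures for 25 members by the same test. The xenograft log2 fold change minus the culture log2 fold change was below 0 for 23 of them: INSIG1 -1.72, SCD -1.60, HMGCS1 -1.34, STARD4 -1.23, EBP -1.21, CYP51A1 -1.19, MSMO1 -1.18, IDI1 -1.17, FASN -0.9997, ACAT2 -0.92, FDPS -0.90, SQLE -0.83, FDFT1 -0.82, DHCR7 -0.68, SREBF2 -0.66, NSDHL -0.61, SREBF1 -0.53, ACSS2 -0.51, MVD -0.50, MVK -0.46, LSS -0.45, HSD17B7 -0.39 and ACLY -0.28. It was above 0 for PMVK 0.53 and TM7SF2 1.07.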

How the results depend on the processing

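Total-count scaling gave 6 members higher at 72 h of auxin (median -0.078), 5 higher at 72 h against 12 h (median -0.17) and 0 lower at 12 h. Over all 14029 genes 5412 were higher at 72 h, 4880 were higher at 72 h against 12 h and 359 were lower at 12 h. The members' medians were 0.46 in KO cultures and -0.66 for the xenograft effect minus the culture effect. On log2(TPM + 0.1), log2(TPM + 1) and the unfiltered table, limma found 10 members lower at 72 h (medians -0.10, -0.10 and -0.10). At 12 h it found 0 higher and 0 lower (medians 0.063, 0.058 and 0.063). Over all genes limma found 2419, 2391 and 2255 lower at 72 h. It found 8, 8 and 7 members lower after washout against control cells, where 116, 116 and 71 of all genes were lower. In the xenograft effect minus the culture effect 1 member was higher (medians -0.85, -0.84 and -0.85), where 868, 982 and 834 of all genes were higher. The limma medians were 0.55, 0.54 and 0.55 in KO cultures, -0.27, -0.25 and -0.27 after washout against 12 h, -0.22, -0.21 and -0.22 at 72 h against 12 h, and -0.59, -0.58 and -0.59 for the 72 h effect minus the culture effect. Without the filter 1 was higher and 14 lower at 72 h against 12 h. SREBF1 reversed at 72 h on these scales (0.018, 0.018 and 0.018). The cause was not tested.

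At 12 h DESeq2 gave 0 lower, the unfiltered edgeR fit 3 lower and the fit of only these groups 1 higher and 0 lower. Medians in KO cultures were 0.35 with DESeq2 size factors in edgeR, 0.35 with DESeq2 and 0.38 without the filter. Without the filter they were -0.26 at 72 h against 12 h and -0.55 for the 72 h effect minus the culture effect. Leaving out the 4 haemoglobin-bearing libraries was an alternative chosen after seeing the data. The members' medians were then -0.006 at 12 h and -0.30 at 72 h against 12 h. After washout they were -0.24 against 12 h and -0.24 against control cells. A lone library left at 12 h or after washout is assumed there to vary like the other groups.

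Leaving out 1 library gave 0 to 3 higher and 0 to 3 lower at 12 h. Medians ranged from -0.26 to -0.21 at 72 h, -0.27 to -0.20 for washout against control cells, -0.28 to -0.26 at 72 h against 12 h, 0.36 to 0.37 in KO cultures and -0.58 to -0.51 for the 72 h effect minus the culture effect. It ended the calls at 72 h against 12 h of INSIG2, SCAP and STARD4 (edgeR adjusted p 0.0689 to 0.263). Among differences between effects it ended those of HSD17B7 (any of 8 libraries), INSIG2 (4), ACLY (12) and MVK (5), with edgeR adjusted p 0.0516 to 0.126.

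Replicate numbers did not pair the samples: same-numbered libraries had correlated deviations of -0.19 to -0.07 in cultures, -0.06 to 0.07 in degron cells and -0.09 to 0.04 in xenografts. With the replicate number as a block 2 members were lower at 12 h. The calls of SC5D (edgeR adjusted p = 0.0615) and SCD (0.0571) in xenografts and of ACLY (0.0695) for the xenograft effect minus the culture effect did not pass. FADS1, with group means of 0.364 to 2.15 TPM, rests on few counts.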

Other observations

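ME1, the malic enzyme that supplies NADPH for fatty acid synthesis, fell in KO cultures, in KO xenografts and at both times of auxin. It averaged 186 ± 2.12 CPM in KO cultures and 313 ± 13.0 CPM in WT cultures (SD, n = 3 each; -0.75, edgeR adjusted p = 8.81e-10), and 37.4 ± 3.02 CPM in KO xenografts and 103 ± 8.24 CPM in control xenografts (SD, n = 5 each; -1.47, edgeR adjusted p = 4.53e-10). Degron cells averaged 294 ± 21.2 CPM in controls, 259 ± 5.14 CPM at 12 h, 141 ± 1.35 CPM at 72 h, and 223 ± 4.10 CPM when auxin had been washed out. On the log2 scale the fall was 0.18 at 12 h (edgeR adjusted p = 0.0195) and 1.06 at 72 h (edgeR adjusted p = 7.61e-15). PDSS1, which builds the isoprenoid tail of coenzyme Q, fell by 1.38 (log2) in KO cultures, 1.21 in KO xenografts and 1.14 at 72 h, and did not pass at 12 h (-0.26, edgeR adjusted p = 0.0856). These genes thus fell both where the cholesterol enzymes were mostly higher and where they were mostly lower.

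ACSL1, which activates long-chain fatty acids, rose by 1.15 (log2) in KO cultures, 1.22 in KO xenografts and 0.36 at 72 h. CPT1A, which admits fatty acids to mitochondria for oxidation, averaged 24.9 ± 1.88 CPM at 72 h and 9.87 ± 1.52 CPM in control degron cells (SD, n = 3 each; 1.33, edgeR adjusted p = 2.94e-10). It rose by 0.69 in KO cultures and did not pass in KO xenografts (0.11, edgeR adjusted p = 0.217). HADHA, a subunit of the mitochondrial trifunctional protein, fell by 0.33 at 72 h, 0.48 in KO cultures and 0.42 in KO xenografts. These 5 genes were chosen after their values were seen.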
